A study of Mus musculus with 4 samples.

Results

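The glycolysis and hypoxia genes described here are 33 genes, taken as a fixed list out of the 27998 genes counted in the dataset, and each of the 33 was found once among the gene names. They comprise the glucose transporter and hexokinases that bring glucose into the cell and trap it (Slc2a1, Hk1, Hk2), the enzymes of upper glycolysis (Gpi1, Pfkl, Pfkp, Pfkm, Aldoa, Aldoc, Tpi1) and lower glycolysis (Gapdh, Pgk1, Pgam1, Eno1, Pkm), the genes of lactate production and transport (Ldha, Ldhb, Slc16a1, Slc16a3), genes known to respond to low oxygen (Mif, Bnip3, Bnip3l, Egln1, Egln3, Ankrd37, Ddit4, Pdk1, P4ha1, P4ha2, Higd1a, Ero1l) and the oxygen-sensitive alpha subunits of the hypoxia-inducible factors (Hif1a, Epas1). As background, endothelial cells draw much of their ATP from glycolysis, and sprouting vessels are known to lean on it. When oxygen is low, prolyl hydroxylases such as those encoded by Egln1 and Egln3 no longer mark the alpha subunits for destruction, and the stabilised factors bind DNA with their beta partner at sites with a short shared core and switch on many glycolytic genes. Epas1 encodes the alpha subunit best known from endothelium.

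The study sorted CD31+/CD45- cells, the endothelial fraction, from hearts of C57Bl6 mice and measured RNA in single cells at 4 stages, namely E12, E15, P2 and Adult (8 weeks). Every stage was 1 library made from pooled animals (37 for E12, 48 for E15, 21 for P2, 6 for Adult), so neither animals nor litters could be compared. No mouse carried an engineered allele or received a treatment. Embryonic hearts were digested with collagenase/dispase alone, while P2 and adult hearts were first digested with collagenase II. Red blood cells were lysed in the adult samples. All sorted cells were frozen and thawed. Dead cells were then removed with a kit at E12 and E15, while live P2 and adult cells were sorted again. Stage, library and these handling steps therefore cannot be told apart in any comparison between stages.

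Values are unique molecular identifiers (UMIs), 1 for each captured transcript. UMIs were summed over the cells of a class and given as CPM, the counts per 1e+06 UMIs of that class, and intervals are exact 95% intervals that cover counting error only. With 1 library a stage no test between groups was made. A gene was called higher or lower where its CPM differed by at least 1.5-fold and it had at least 50 UMIs in both groups together. Levels were compared within a gene and not between genes. Where 4 values follow each other without stages, they run from E12 through E15 and P2 to Adult.

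Cells were placed in 5 classes by marker UMIs. Endocardial cells, the lining of the heart chambers, had more UMIs of Npr3 and Tmem108 than of Fabp4, Cldn5 and Aplnr. Angiogenic capillary cells had at least 2 UMIs of Kcne3, Apln and Pcdh17, mature capillary cells at least 2 of Timp4, Car4 and C1qtnf9, and artery cells at least 3 of Cxcl12, Glul, Alpl and Nebl. Non-endothelial cells had no UMI of Pecam1, Cdh5 and Egfl7. The endocardial class held 1716, 2115, 1082 and 75 cells, and the angiogenic capillary class 59, 130, 1454 and 203. Mature capillary cells numbered 1736 at P2 and 2020 in the adult, but 6 at E12 and 4 at E15, where they were not used. Classes were allowed to overlap, and 77.8% of the adult angiogenic capillary cells also met another rule. UMIs of shared cells enter both sides of a ratio between classes, which its interval does not take into account.

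The class names were checked against markers that the rules did not use. Summed endocardial markers stood at 467 CPM in endocardial and 145 CPM in angiogenic capillary cells at E12, and at 3885 and 38.8 CPM in the adult. Capillary markers stood at 1053 CPM in angiogenic capillary cells at E15 against 113 CPM in endocardial cells, but at E12 at 62.3 and 47.3 CPM. The E12 barcodes with too few UMIs for a cell, taken as background, held 335 CPM of capillary markers and 199 CPM (173 to 228) of the other angiogenic markers, against 221 CPM of the latter in the E12 angiogenic capillary class and 70.7 CPM in the endocardial class. They also held 410.1 CPM (372 to 451) of endocardial and 1644 CPM of endothelial markers, against 467 and 1330.02 CPM in the E12 endocardial class. Those with at most 100 UMIs held 377 CPM (334 to 424) of endocardial and 1405 CPM of endothelial markers. At E12 the markers outside the rules therefore do not set the angiogenic capillary class above background, nor the endocardial class clearly so, and both names stand there only for the genes of the rules. At E15 the other angiogenic markers stood at 325 CPM in angiogenic capillary and 117 CPM in endocardial cells. In angiogenic and mature capillary cells they stood at 379.5 and 363 CPM at P2, and at 298 and 125 CPM in the adult. At P2 they therefore do not clearly separate these capillary classes. The artery rule went against its name in the embryo, since 257 of its 332 cells at E12 had no UMI of Pecam1, Cdh5 and Egfl7, and mesenchymal markers reached 3387 CPM. Artery cells are therefore described at P2 (711 cells) and in the adult (1875 cells). At P2 the artery markers outside the rule stood at 1333 CPM in artery, 371.5 CPM in mature capillary and 289 CPM in endocardial cells. In the adult they stood at 845, 511 and 862 CPM, which does not set artery above endocardial cells. Adult artery cells also held 8624 CPM of capillary markers, against 10990 CPM in mature capillary cells, and 52.6% of them met another rule. The adult name therefore rests mainly on the genes of the rule. The non-endothelial class was mixed as well. At E12 it still held 533 CPM of endothelial markers against 1330.02 CPM in endocardial cells, 596 cells were in both classes, and erythroid markers reached 12295 CPM.

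The 4 libraries held 4242 to 6062 cells with a median of 1013 to 4531.5 UMIs, P2 being the deepest. Between 25 and 60 cell barcodes were shared by each pair of libraries. Ribosomal protein genes took 31.0%, 30.0%, 16.1% and 11.97% of UMIs in the 4 libraries. The summed handling-stress genes (immediate-early and heat-shock genes) stood at 581, 993, 4906 and 10412 CPM in angiogenic capillary cells across the stages, and their part in the stage differences was tested only by leaving out cells rich in them.

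Taken as a sum, the 33 genes were most abundant in the angiogenic capillary cells of the embryo and drew close to the other classes in the adult. In angiogenic capillary cells the sum stood at 8924 CPM (8443 to 9424) in the E12 library, at 7819 CPM (7465 to 8186) in the E15, at 5576 CPM (5528 to 5625) in the P2 and at 4294 CPM (4129 to 4465) in the adult library. In endocardial cells it stayed within a narrow band, at 3679.6, 3496, 3280.5 and 3937 CPM. Mature capillary cells held 4843 CPM at P2 and 4358 CPM in the adult, and artery cells 5103 and 4674 CPM. The non-endothelial class held 4552 CPM at E12, 4140.3 CPM at E15 and 4217 CPM among adult cells. The intervals of the angiogenic capillary and endocardial sums did not overlap at E12, E15 or P2, and did overlap in the adult.

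**Figure D1:**
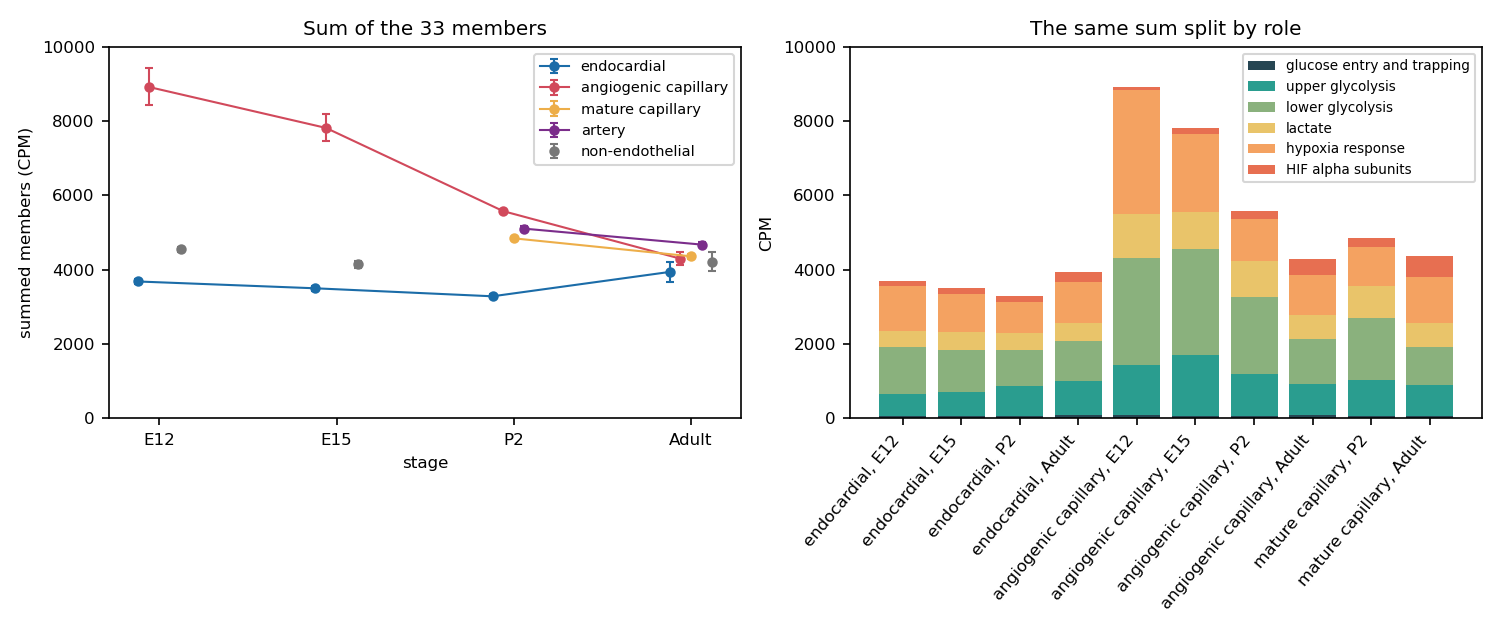
The left panel plots the summed CPM of the 33 genes by stage for the 5 classes, with points for the value in 1 library and bars for the exact 95% Poisson interval (counting error only). The right panel splits the sum by role as stacked bars. The angiogenic capillary sum goes from 8924 CPM at E12 to 4294 CPM in the adult, while the endocardial sum lies between 3280.5 and 3937 CPM.

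The ratio of the angiogenic capillary to the endocardial sum was 2.43 (2.29 to 2.57), 2.24 (2.13 to 2.35), 1.70 (1.67 to 1.73) and 1.09 (1.01 to 1.18) from E12 to Adult. At E15, lower glycolysis (2.55-fold), upper glycolysis (2.48-fold), lactate genes (2.09-fold) and hypoxia-response genes (2.04-fold) all contributed, while the alpha subunits did not differ beyond counting error (1.02, 0.715 to 1.42). In angiogenic capillary cells at E15 the hypoxia-response genes held 26.77% of the summed UMIs, and Mif alone 15.98%. In endocardial cells at E15 they held 29.34% and Mif alone 13.86%. Their ratio without Mif was not computed, so the 2.04-fold is not shown to hold for the rest of them. At P2 the ratio was largest for lower glycolysis (2.15-fold) and the lactate genes (2.07-fold), and was smaller for upper glycolysis (1.37-fold) and the hypoxia-response genes (1.37-fold). Angiogenic capillary cells were also deeper in the first 3 libraries, though not in the adult (2556 against 2609), with a median of 2343 against 1276.5 UMIs at E12, 1561 against 1003 at E15 and 5502.5 against 4532 at P2. With cells classed after each was thinned to 500 UMIs, which left 27 and 74 angiogenic capillary cells, the ratio of the sums was 2.26 at E15 and 1.61 at P2.

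**Figure D2:**
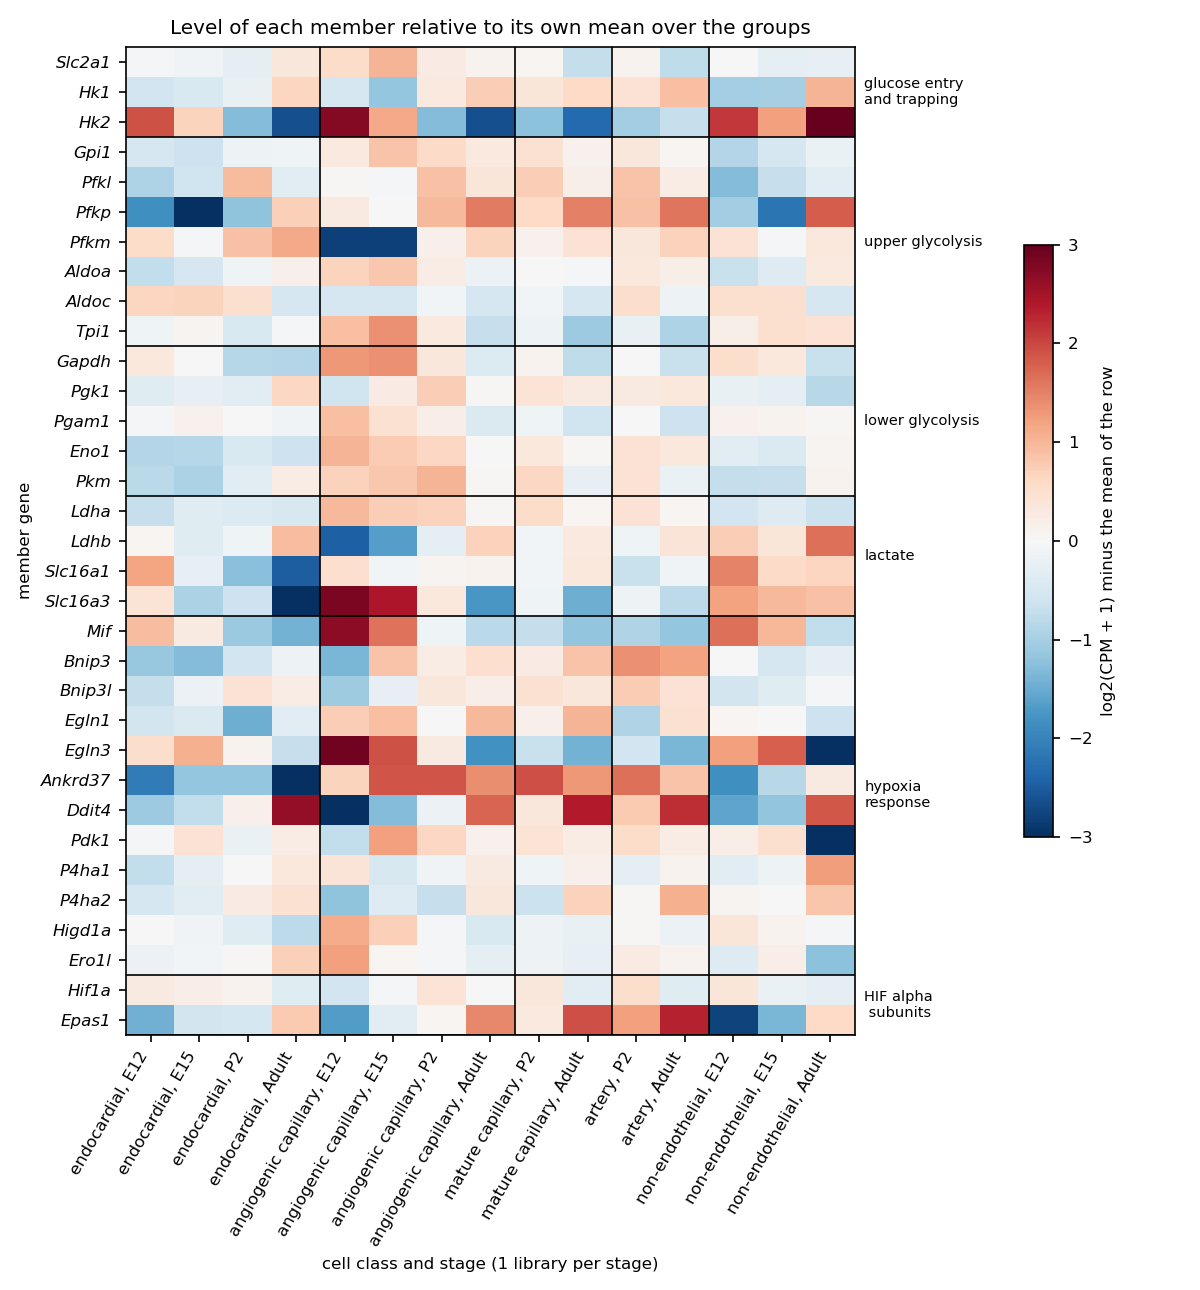
Heat map of the 33 genes (rows, by role) in the classes with at least 50 cells at each stage (columns), leaving out the embryonic artery class. Colour gives log2(CPM + 1) minus the mean of the row, cut at 3 and -3, so that each gene is compared only with itself. Mif and Slc16a3 are high in embryonic angiogenic capillary cells, Ankrd37 is low in all 4 endocardial columns, and Epas1 and Ddit4 are high in the adult columns.

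The genes of glucose entry were sparsely counted and contributed at most 140.04 CPM to any of these sums. Slc2a1, the main glucose transporter of endothelium, stood at 18.2, 17.2, 15.2 and 23.9 CPM in endocardial cells and at 27.7, 38.5, 22.4 and 20.2 CPM in angiogenic capillary cells, from 45, 42, 79, 5, 4, 9, 202 and 12 UMIs. In mature capillary cells it went from 19.5 CPM at P2 to 10.998 CPM in the adult, and in artery cells from 20.03 to 10.5 CPM. These adult levels were 1.77-fold (1.27 to 2.53) and 1.91-fold (1.29 to 2.86) below those at P2, but with thinned cells the mature capillary ratio of Slc2a1 turned to 1.87 in favour of the adult. The hexokinases, which phosphorylate glucose, differed in their course. Hk2 stood at 22.6, 8.99, 1.54 and 0 CPM in endocardial cells and at 41.5, 12.8, 1.55 and 0 CPM in angiogenic capillary cells. With no Hk2 UMI in either adult class, the limit that a count of 0 allows was 14.4 CPM in endocardial and 5.06 CPM in angiogenic capillary cells. Hk1 stood at 19.8, 21.7, 25.7 and 47.9 CPM in endocardial cells, at 36.9 and 50.6 CPM in angiogenic capillary cells at P2 and in the adult, and at 40.8 and 56.7 CPM in artery cells.

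In upper glycolysis, Aldoa, the aldolase that splits the 6-carbon sugar, was the most counted gene. Aldoa stood at 782, 865, 569.9 and 438 CPM in angiogenic capillary cells, and at 292, 346, 450.5 and 551 CPM in endocardial cells. It was 2.67-fold (2.17 to 3.26) higher in angiogenic capillary cells at E12, and its adult ratio was 0.796 (0.637 to 1.00004). Mature capillary cells held 495.5 and 482 CPM and artery cells 616 and 555 CPM at P2 and in the adult. Gpi1, the isomerase that follows hexokinase, stood at 194, 287, 236 and 194 CPM in angiogenic capillary cells and at 109.6, 102, 141 and 144 CPM in endocardial cells, which made it 1.77-fold, 2.82-fold and 1.68-fold higher in angiogenic capillary than in endocardial cells at E12, E15 and P2. Tpi1, which interconverts the 3-carbon products, stood at 290.5, 402, 188 and 94.4 CPM in angiogenic capillary cells and at 141, 163, 111 and 148 CPM in endocardial cells. Mature capillary cells went from 139 CPM at P2 to 71.5 CPM in the adult, and artery cells from 132 to 80.1 CPM.

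Of the phosphofructokinases, which catalyse the committed step, Pfkl was 2.97-fold (2.36 to 3.77) higher in endocardial cells at P2 than at E15, at 104 against 35.2 CPM. It was 1.93-fold (1.10 to 3.75) higher in angiogenic capillary cells over the same step. Pfkp, the platelet form, was higher in the vessel classes than in the endocardial class at P2. It stood at 34.5 CPM in angiogenic capillary, 26.1 CPM in mature capillary and 32.2 CPM in artery cells, against 6.76 CPM in endocardial cells, a 5.11-fold difference (3.60 to 7.48) between the angiogenic capillary and endocardial classes. In the adult Pfkp reached 52.3, 50.5 and 53.3 CPM in those 3 classes, and 28.7 CPM in endocardial cells from 6 UMIs. Pfkm, the muscle form, was low in every class (at most 14.4 CPM), and Aldoc had at most 5 UMIs in any endothelial class.

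Lower glycolysis held Gapdh, the most counted of the 33 genes, with 14.6% of their UMIs over all cells. Gapdh oxidises the 3-carbon sugar and stood at 1577, 1661, 812 and 482 CPM in angiogenic capillary cells and at 797, 643, 355 and 349.7 CPM in endocardial cells. It was lower after birth in both classes, by 2.05-fold (1.84 to 2.27) in angiogenic capillary and 1.81-fold (1.69 to 1.94) in endocardial cells between E15 and P2. Mature capillary cells went from 685 to 381 CPM and artery cells from 632 to 404 CPM between P2 and the adult. Gapdh, Mif and other glycolytic genes have processed copies in the mouse genome, and whether reads were shared with them was not examined.

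Pkm, the pyruvate kinase gene, followed another course. It stood at 581, 629, 725 and 362.5 CPM in angiogenic capillary cells, highest at P2, and at 204, 185, 283 and 417 CPM in endocardial cells, highest in the adult. The ratio between the classes was 2.85, 3.40, 2.56 and 0.870. Mature capillary cells went from 545 CPM at P2 to 301 CPM in the adult, and artery cells from 485 to 311 CPM. Eno1, an enolase, was higher in angiogenic capillary cells at each of the 4 stages, at 422, 351, 319.5 and 209 CPM against 112, 114, 151 and 134 CPM. Pgam1, the phosphoglycerate mutase, differed between the classes at E12 (290.5 against 149 CPM) and less at later stages, with 178 against 155 CPM at P2. Pgk1, the first ATP-forming enzyme, was counted sparsely, at 36.4 against 17.0 CPM at P2, a ratio of 2.14 (1.69 to 2.75).

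Among the lactate genes, Ldha, the lactate dehydrogenase subunit that favours making lactate, stood at 1093, 929, 903 and 575 CPM in angiogenic capillary cells. In endocardial cells Ldha kept to 346, 434, 416.5 and 402 CPM, and the ratio between the classes was 3.16, 2.14, 2.17 and 1.43. In the adult, Ldha stood at 578 CPM in mature capillary, 582 CPM in artery and 575 CPM in angiogenic capillary cells, classes that share many cells. Ldhb, the subunit of oxidative tissues, was instead at 6.92 and 12.8 CPM from 1 and 3 UMIs in embryonic angiogenic capillary cells, 35.2 CPM at P2 and 69.1 CPM in the adult. The Adult to P2 ratio of Ldhb was 1.96 (1.38 to 2.72) in that class. Slc16a3, which exports lactate, stood at 62.3, 47.1, 10.1 and 1.69 CPM in angiogenic capillary cells, from 9, 11, 91 and 1 UMIs, against 10.9, 3.68, 4.83 and 0 CPM in endocardial cells. At P2 it was 4.66-fold (2.25 to 8.73) below its E15 level in angiogenic capillary cells. Slc16a1, the other lactate transporter here, stayed at or below 6.92 CPM in capillary and artery cells.

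Of the hypoxia-response genes, Mif, which encodes an inflammatory cytokine, had the most UMIs. In angiogenic capillary cells Mif stood at 2559 CPM (2305 to 2834) at E12, then at 1249.7 and 368 CPM, and at 228 CPM (191 to 269) among adult cells, which made the adult level 11.2-fold (9.21 to 13.8) lower than that at E12. In endocardial cells it stood at 756, 484, 185 and 148 CPM. Mif made up 28.7% of the summed UMIs of the 33 genes in angiogenic capillary cells at E12 and 5.30% in the adult. Over the same span the sum in that class went from 8924 to 4294 CPM, and Mif from 2559 to 228 CPM. The hypoxia-response genes together held 37.6% of the summed UMIs there at E12 and 25.6% in the adult. The sum without Mif was not computed, so the part of Mif in the stage differences of the sum was not tested. The non-endothelial class of the embryo held 1252 CPM of Mif at E12 and 803 CPM at E15. That class still held 533 CPM of endothelial markers at E12 and 1249 CPM at E15. The E12 barcodes with too few UMIs for a cell held 744 CPM of Mif. Whether Mif was particular to endothelium cannot be told from this class. Higd1a, a mitochondrial protein gene, showed a smaller difference in the same direction, at 394, 295, 176 and 131.5 CPM in angiogenic capillary cells against 184, 169, 140.3 and 105 CPM in endocardial cells.

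Ankrd37, an ankyrin repeat gene known to be induced by HIF, had the largest ratio of angiogenic capillary to endocardial cells at E15 and P2 among the members with at least 50 UMIs. It stood at 98.4 CPM at E15 and 98.0 CPM at P2 in angiogenic capillary cells against 11.04 and 11.001 CPM in endocardial cells, which gave 8.92-fold (4.88 to 16.2) and 8.90-fold (6.81 to 11.9). Mature capillary cells held 102 CPM and artery cells 82.9 CPM at P2, and 64.7 and 47.3 CPM in the adult. In adult endocardial cells Ankrd37 had no UMI, which allows up to 14.4 CPM, against 69.1 CPM in angiogenic capillary cells.

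Bnip3 and Bnip3l encode mitochondrial proteins of mitophagy. Bnip3 was highest in artery cells, at 98.1 CPM at P2 and 87.7 CPM in the adult. It stood at 44.6 and 69.2 CPM in mature capillary cells. Angiogenic capillary cells held 13.8, 68.5, 44.2 and 54.0 CPM, from 2, 16, 398 and 32 UMIs, and endocardial cells 16.6, 14.7, 25.1 and 33.5 CPM. At P2 Bnip3 was lower in mature capillary than in artery cells, at 0.455 of their level (0.394 to 0.524). Bnip3l differed little between classes and more between stages, at 124, 180, 275 and 239.5 CPM in endocardial cells and 96.8, 171, 261.1 and 236 CPM in angiogenic capillary cells.

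The promoters of Ankrd37, Bnip3 and Mif are shown as those of genes that passed 1.5-fold both between classes and between stages. They are the 250 bases before the RefSeq start on GRCm38, read 5′ to 3′ on the strand of the gene. Capitals mark the letters ACGTG or GCGTG on either strand (CACGT or CACGC when read from the other strand), which are the core of the hypoxia-response element, and matches may overlap.
Ankrd37, chr8:45999851-46000100, minus strand, 4 matches: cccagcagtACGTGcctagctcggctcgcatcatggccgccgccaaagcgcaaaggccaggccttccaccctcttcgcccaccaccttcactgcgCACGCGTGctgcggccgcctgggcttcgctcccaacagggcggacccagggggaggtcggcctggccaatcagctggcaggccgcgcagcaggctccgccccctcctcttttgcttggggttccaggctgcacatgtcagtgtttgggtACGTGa
Bnip3, chr7:138909507-138909756, minus strand, 5 matches: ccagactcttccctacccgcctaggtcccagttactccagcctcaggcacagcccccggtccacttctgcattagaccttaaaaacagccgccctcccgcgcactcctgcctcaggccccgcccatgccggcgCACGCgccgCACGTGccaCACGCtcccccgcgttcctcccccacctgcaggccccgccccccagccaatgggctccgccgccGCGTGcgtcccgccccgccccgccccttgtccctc
Mif, chr10:75860278-75860527, minus strand, 0 matches: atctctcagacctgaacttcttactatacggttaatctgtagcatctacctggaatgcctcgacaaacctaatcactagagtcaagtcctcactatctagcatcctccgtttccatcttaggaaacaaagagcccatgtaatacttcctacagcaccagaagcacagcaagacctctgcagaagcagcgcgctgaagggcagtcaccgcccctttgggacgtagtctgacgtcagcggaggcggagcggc

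By GENCODE M21 the Ankrd37 window lies inside the span of a longer Ankrd37 form and of Lrp2bp on the other strand, with 17 bases in an Ankrd37 exon. The Bnip3 window has 13 bases in the first Bnip3 exon, and the Mif window lies outside annotated genes. A window with at least 1 such match was found for 28 of the 31 members with a RefSeq promoter sequence, and for 81.4% of their 43 promoters, against 38.6% of all 32851 promoters. The genes were listed for glycolysis and hypoxia beforehand, some windows of the same gene overlap, and promoters were not matched for base composition. A match says only that these letters are present.

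The prolyl hydroxylase genes went apart between P2 and the adult, where Egln3 was sparsely counted. From E12 to E15, Egln3 but not Egln1 was called higher in endocardial cells, with an interval that included 1. From E15 to P2, Egln1 and Egln3 were both called lower in angiogenic capillary and in endocardial cells. In angiogenic capillary cells the interval of Egln1 over this step included 1, and its ratio turned to 1.55 with thinned cells. Egln1 stood at 24.4 CPM at P2 and 48.9 CPM in the adult in angiogenic capillary cells, and at 27.5 and 51.2 CPM in mature capillary, 12.7 and 34.1 CPM in artery, and 8.30 and 19.2 CPM in endocardial cells. The Adult to P2 ratio was 2.00 (1.31 to 2.96), 1.87 (1.54 to 2.26) and 2.69 (1.93 to 3.81) in the first 3 classes. With cells of 1 class only, the angiogenic capillary ratio of Egln1 turned to 0.442. Egln3, itself a HIF target, was highest in the embryo, at 69.2, 34.2, 10.3 and 1.69 CPM in angiogenic capillary cells, from 10, 8, 93 and 1 UMIs. Its Adult to P2 ratio in mature capillary cells, called lower, turned to 1.60 with thinned cells.

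Ddit4, an inhibitor of mTOR signalling that responds to several stresses, stood at 29.9, 38.4, 72.0 and 407 CPM in endocardial cells. From P2 to the adult it went from 56.6 to 219 CPM in angiogenic capillary, from 81.7 to 342 CPM in mature capillary and from 113 to 301 CPM in artery cells. The ratios were 5.66 (4.41 to 7.18), 3.87 (3.17 to 4.70), 4.19 (3.82 to 4.59) and 2.67 (2.39 to 2.98). In the adult, handling-stress genes stood at 1571 CPM in endocardial cells and at 10412, 10077 and 9079 CPM in angiogenic capillary, mature capillary and artery cells. Without the cells that gave over 1% of their UMIs to those genes, a setting chosen after the data had been seen, the ratios were 5.94, 3.90, 4.77 and 2.76. That setting removed none of the 75 adult endocardial cells and kept 137 of 203, 1461 of 2020 and 1429 of 1875 adult cells of the other classes. The stress level of the kept cells is not given, so the part of handling in these ratios was not tested.

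P4ha2, a collagen prolyl hydroxylase gene, was 2.12-fold, 2.65-fold and 2.09-fold higher in the adult than at P2 in angiogenic capillary, mature capillary and artery cells. P4ha1, its relative, stayed between 24.7 and 55.3 CPM in the endothelial classes. Pdk1, a pyruvate dehydrogenase kinase gene, was 1.81-fold (1.33 to 2.50) higher in angiogenic capillary than in endocardial cells at P2, at 19.2 against 10.6 CPM. Ero1l, an oxidase of the endoplasmic reticulum, kept to 23.6 to 34.5 CPM in the capillary and artery classes after birth.

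The alpha subunit genes diverged between P2 and the adult. Epas1 stood at 48.9, 91.6, 91.9 and 230 CPM in endocardial cells and at 41.5, 107, 139 and 364 CPM in angiogenic capillary cells. The E12 barcodes with too few UMIs for a cell held 73.5 CPM (57.9 to 92.0) of Epas1, above its level in both E12 classes. Mature capillary cells went from 165 to 513 CPM and artery cells from 316 to 669 CPM, the highest level of the gene. The Adult to P2 ratio of Epas1 was 2.50 (1.82 to 3.37), 2.62 (2.26 to 3.03), 3.11 (2.91 to 3.33) and 2.12 (1.98 to 2.27) in endocardial, angiogenic capillary, mature capillary and artery cells. Hif1a, by contrast, was lower in the adult, at 49.0 against 78.8 CPM in mature capillary and 48.6 against 89.8 CPM in artery cells, which is 1.61-fold (1.37 to 1.89) and 1.85-fold (1.54 to 2.22). In endocardial cells it went from 67.4 to 47.9 CPM and in angiogenic capillary cells from 82.9 to 62.4 CPM, with ratios whose intervals included 1.

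**Figure D3:**
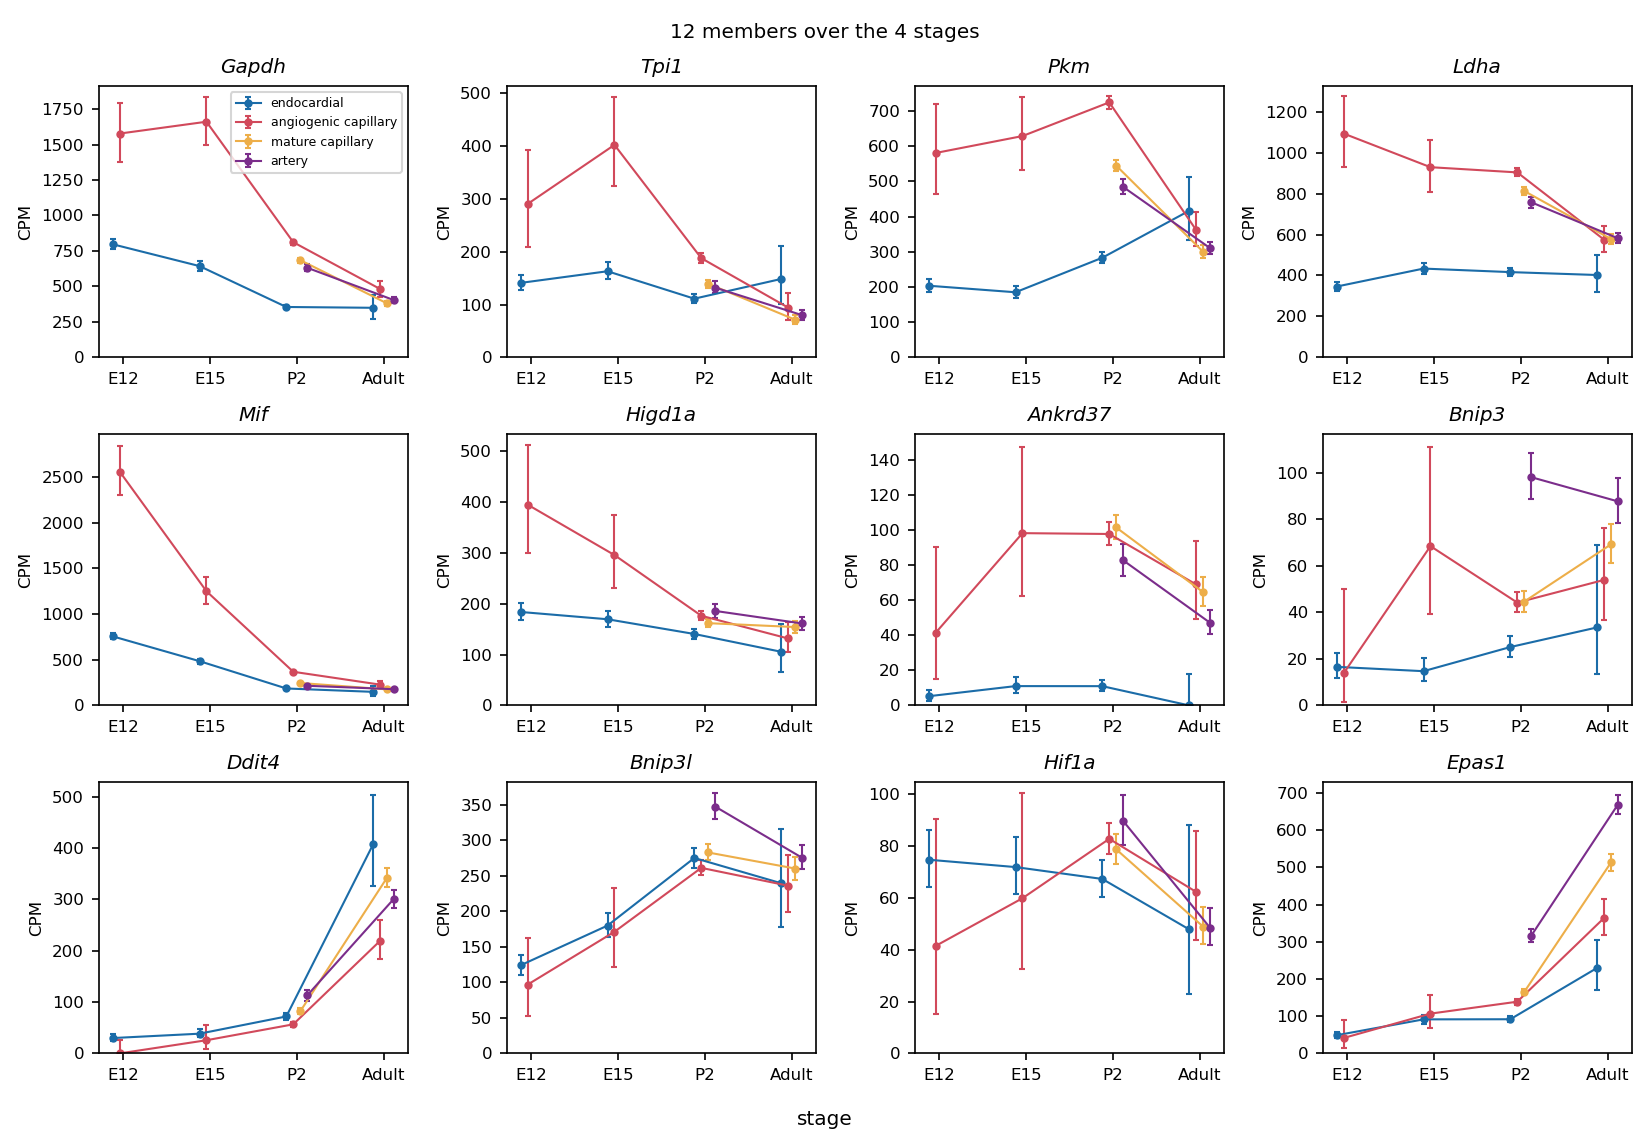
CPM of 12 of the genes (1 panel each, axes from 0) by stage in the endocardial, angiogenic capillary, mature capillary and artery classes, with the exact 95% Poisson interval of 1 library as bars. Mif goes from 2559 to 228 CPM in angiogenic capillary cells, Epas1 from 41.5 to 364 CPM, and Ankrd37 stands at or below 11.04 CPM in endocardial cells up to P2, with no UMI among the 75 adult ones.

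Gene by gene, the capillary and endocardial comparison at E12 had 20 of the 33 members with enough UMIs. Of these, 14 were higher in angiogenic capillary cells, where 14.8% of all 5659 genes with enough UMIs were, and 3 were lower, against 31.8%. The median log2 ratio was 1.02 over these members and -0.04 over all genes. At E15, 14 of 25 members were higher (13.7% of all genes) and 2 lower (29.7%), and at P2, 16 of 31 were higher (16.6%) and 2 lower (24.6%), those being P4ha2 and Pfkm. In the adult 4 of 15 members were higher (26.4%), namely Mif, Eno1, Epas1 and Pfkl, and 2 were lower (16.6%), Ddit4 and Tpi1, though Tpi1 turned to a ratio of 1.14 with cells of 1 class only. The interval excluded 1 for 11, 12, 16 and 3 of the higher members at the 4 stages. Mif and Eno1 were called higher in angiogenic capillary cells at all 4 stages, 2 of the 15 members with enough UMIs at each, against 3.5% of all such genes. At 3 stages or more, 7 of 19 members were called higher (6.06% of all genes) and 0 lower (11.2%).

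**Figure D4:**
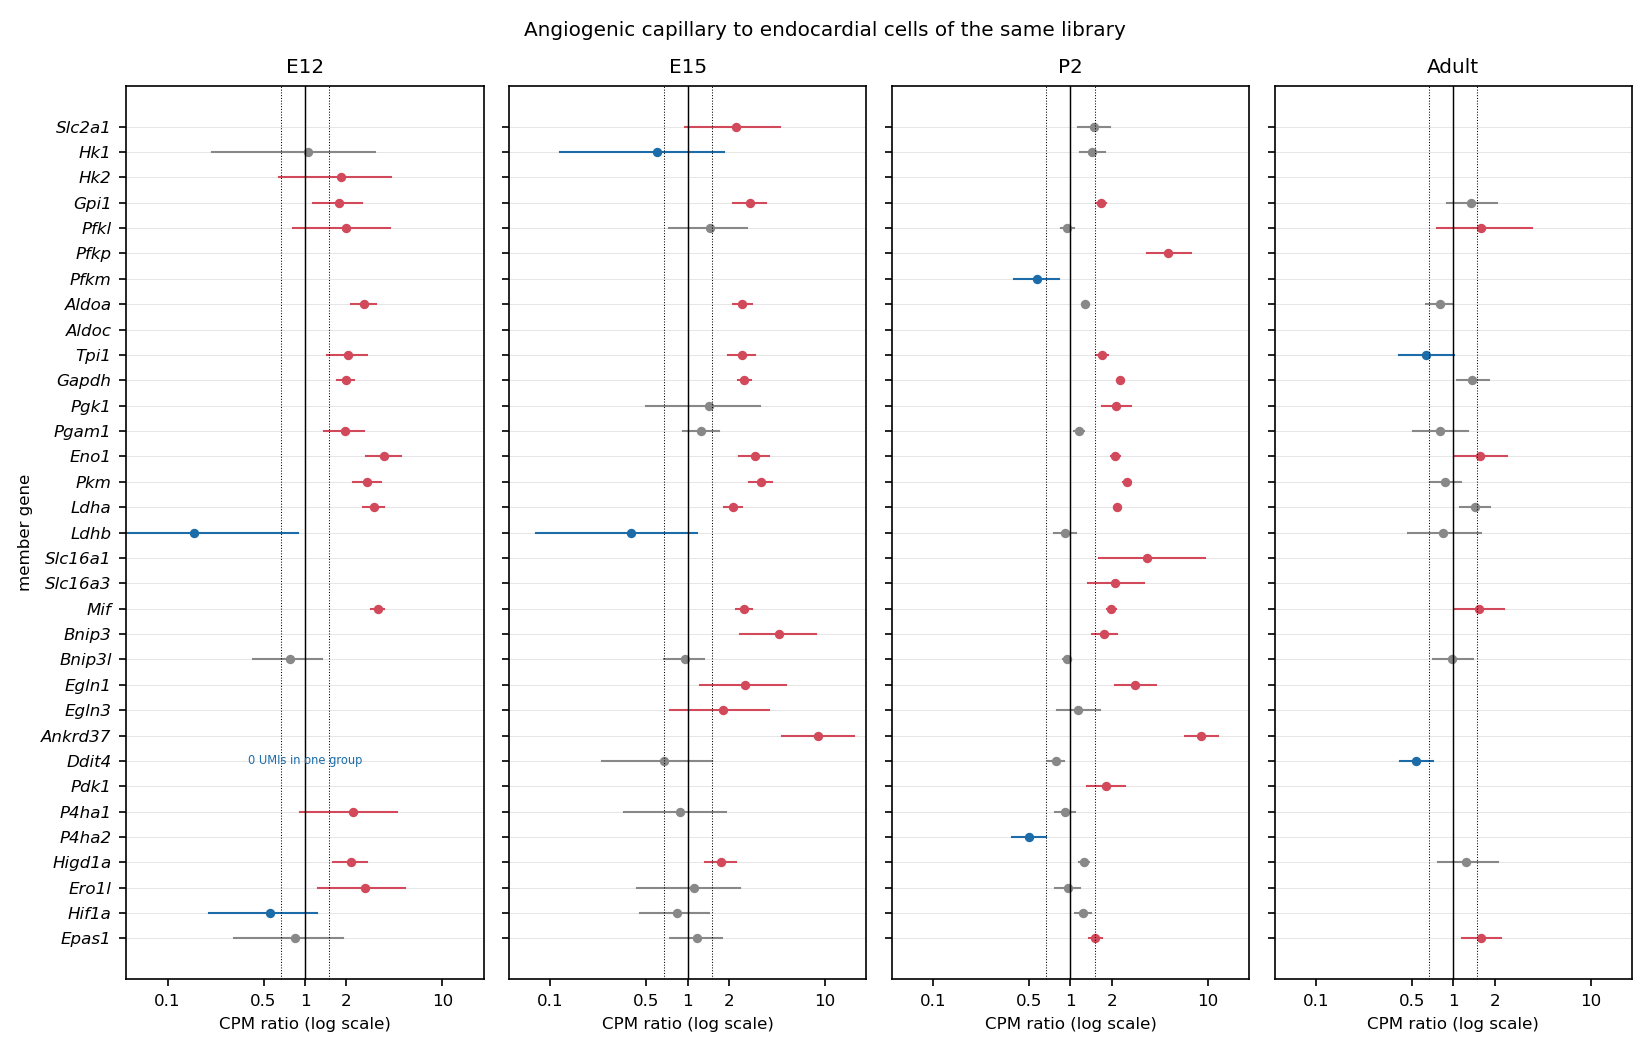
CPM ratio of each gene in angiogenic capillary to endocardial cells of the same library, 1 panel a stage (log axis, exact 95% interval as a line). Red and blue mark ratios past 1.5-fold (dotted lines), grey the others, and genes with under 50 UMIs are left out. Higher members number 14, 14, 16 and 4 at the 4 stages.

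Other genes of the same pathways, 53 in all, were counted too. Between angiogenic capillary and endocardial cells at P2, 8 of 33 with enough UMIs were higher (16.6% of all genes) and 9 lower (24.6%). Adm, which encodes the vasodilator adrenomedullin, stood at 64.5 against 5.21 CPM (12.4-fold), Angptl4, an inhibitor of lipoprotein lipase, at 239 against 28.8 CPM (8.33-fold), and Plod1, a collagen lysyl hydroxylase, at 172 against 46.7 CPM (3.69-fold). Lox, a lysyl oxidase, went the other way, at 2.67 against 22.8 CPM. At E15, 5 of 16 were higher (13.7%) and 5 lower (29.7%).

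Between E12 and E15 few members differed in endocardial cells. Of 27 with enough UMIs, Epas1 and Egln3 were higher at E15 (9.22% of all genes) and Hk2 and Mif lower (8.83%), and the ratio of the sums was 0.9501 (0.922 to 0.979). The interval of Egln3 included 1, and the E12 level of Epas1 lay below that of the E12 barcodes taken as background. In angiogenic capillary cells only 11 members had enough UMIs. Bnip3l was higher (12% of all genes), with an interval that included 1 (0.942 to 3.52), and Mif was lower (8.75%).

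Between E15 and P2 the ratio of the angiogenic capillary to the endocardial sum went from 2.24 to 1.70. The sum was 0.713 (0.681 to 0.748) of its E15 level in angiogenic capillary cells and 0.938 (0.914 to 0.963) in endocardial cells, the latter turning to 1.03 without Gapdh. The median of all genes shifted by 0.21 and 0.25 on the log2 scale over this step, and scaled to that median the ratios of the sums were 0.615 and 0.788. Of 30 members 7 were higher in angiogenic capillary cells (41.1% of all genes) and 11 lower (13.8%), and of 28 members 7 were higher in endocardial cells (29.6%) and 5 lower (9.66%). Gapdh, Mif, Egln1, Egln3 and Pdk1 were lower and Pfkl, Pfkm, Bnip3l and Ddit4 higher in both classes, although for Pdk1 and Egln1 the interval in angiogenic capillary cells included 1, and Pfkm had no UMI there at E15. Tpi1, Aldoa, Higd1a and Slc16a3 were called lower in angiogenic capillary and not in endocardial cells, and Pkm was called higher (1.53-fold) in endocardial and not in angiogenic capillary cells. The differences between the classes in these steps were not tested. Of the 53 pathway genes, 15 of 32 were higher (41.1%) and 7 lower (13.8%) in angiogenic capillary cells. Angptl4 stood at 239 against 38.5 CPM and Loxl2, a lysyl oxidase relative, at 21.2 against 81.3 CPM.

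Between P2 and the adult, the lower-glycolysis sum was lower and Epas1 higher in each of the 3 vessel classes, while Hif1a was not higher in any. Lower-glycolysis sums were 0.575 (0.533 to 0.620), 0.616 (0.595 to 0.638) and 0.698 (0.671 to 0.726) of their P2 level in angiogenic capillary, mature capillary and artery cells, and the summed alpha subunits, most of whose adult UMIs were Epas1, 1.92-fold, 2.31-fold and 1.77-fold higher. The ratio of the whole sum was 0.770 (0.740 to 0.801), 0.900 (0.884 to 0.916) and 0.916 (0.898 to 0.935). In endocardial cells it was 1.20 (1.12 to 1.28), from 822 adult UMIs of these genes. Of 30 members 6 were higher in adult angiogenic capillary cells (18.5% of all genes) and 10 lower (21.8%). Of 31 members 6 were higher in mature capillary cells (18.3%) and 8 lower (18%). Of 28 members 5 were higher in artery cells (16.8%) and 8 lower (16.8%), and of 26 members 7 were higher in endocardial cells (18.4%) and 2 lower (27.3%). The interval excluded 1 for 6, 6, 5 and 3 of the higher members in angiogenic capillary, mature capillary, artery and endocardial cells. Among the lower members it excluded 1 for 9, 7, 8 and 1. Epas1 and Ddit4 were called higher in all 4 classes, 2 of 26 members with enough UMIs in each, against 4.28% of all such genes. In at least 3 classes 5 of 28 members were called higher (11.1% of all genes), with Pfkp, Egln1 and P4ha2 added, and 4 lower (12.9%), namely Tpi1, Gapdh, Pkm and Ankrd37. The Ankrd37 calls include adult endocardial cells, where it had 0 UMIs and the interval reached 1.66.

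**Figure D5:**
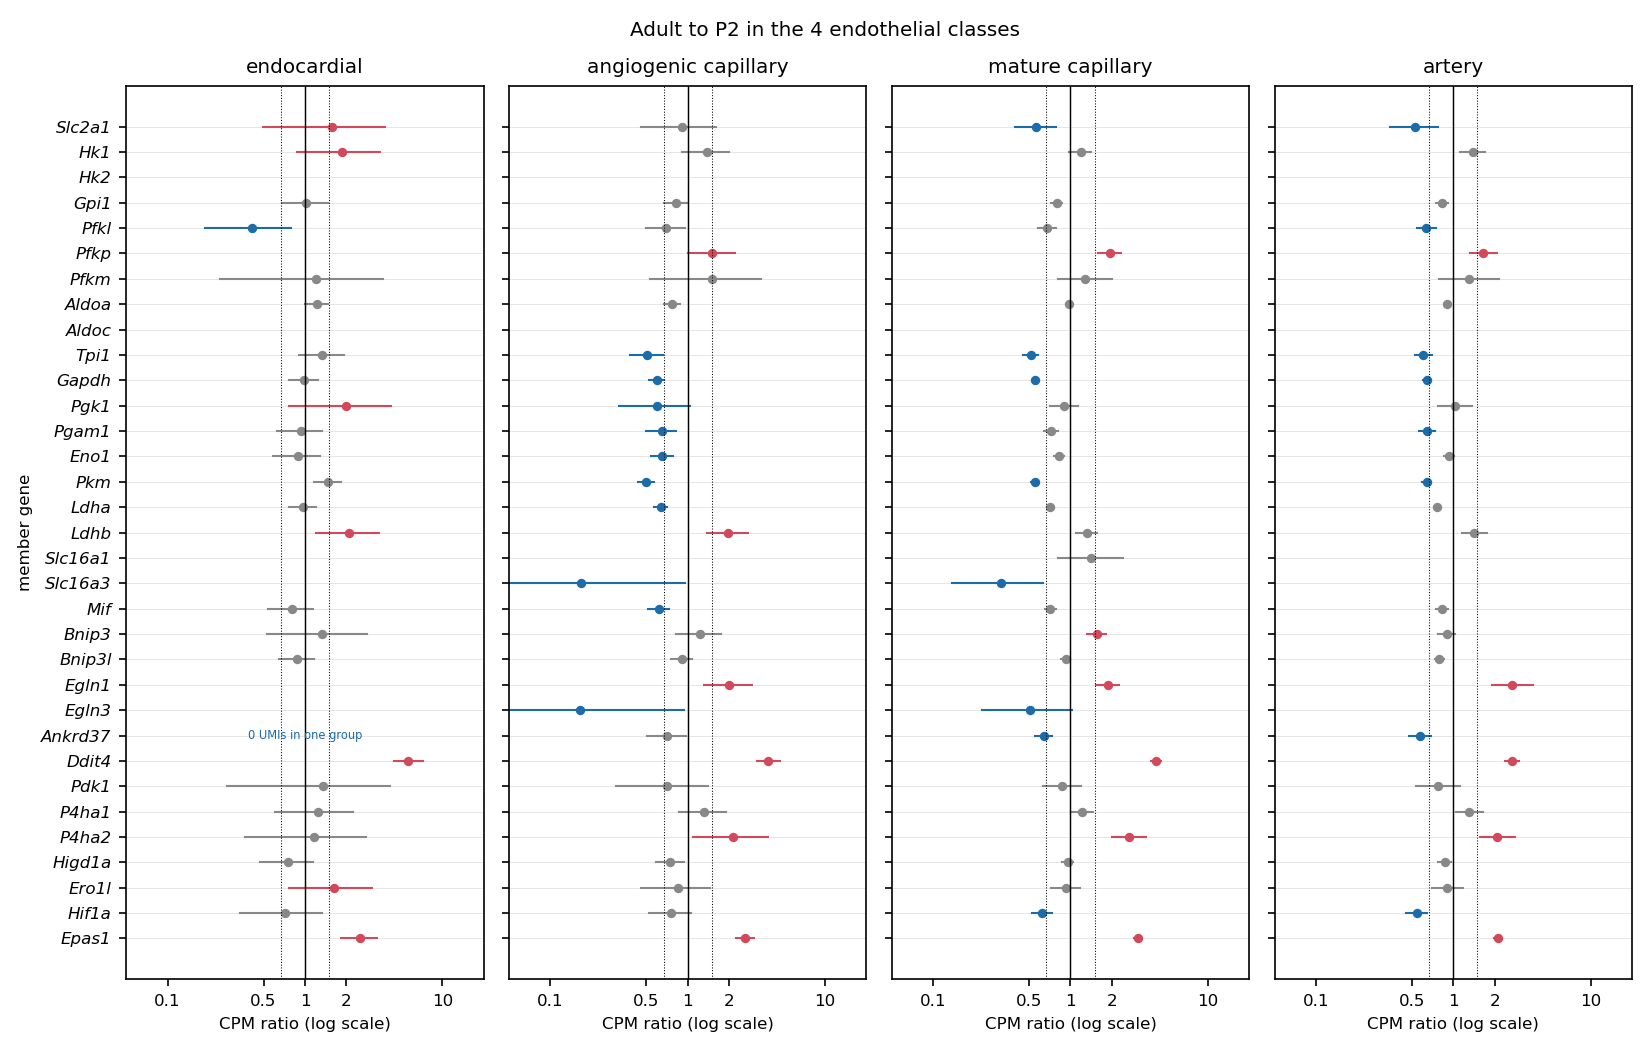
CPM ratio of each gene in the adult to P2 in the 4 endothelial classes (log axis, exact 95% interval as a line). Colours are as in the plot of capillary to endocardial ratios, and genes with under 50 UMIs are left out. Epas1 and Ddit4 lie to the right of the upper dotted line in all 4 panels, while Gapdh, Pkm and Tpi1 lie to the left of the lower one in the capillary and artery panels.

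Of the pathway genes outside the list, 6 of 31 were higher (18.5% of all genes) and 7 lower (21.8%) in adult angiogenic capillary cells, and 6 of 32 higher (18.3%) and 6 lower (18%) in mature capillary cells, shares close to those of all genes. In mature capillary cells Angptl4 stood at 57.5 against 322 CPM and Cited2, which restrains HIF activity, at 9.50 against 44.3 CPM. Vegfa, the vascular growth factor, stood at 1.9996 against 8.63 CPM from 8 and 77 UMIs.

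Over the whole span from E12 to the adult, the sum in angiogenic capillary cells was 2.08-fold (1.94 to 2.22) lower, and 1.07-fold (0.995 to 1.15) that of E12 in endocardial cells. Of 13 members with enough UMIs in angiogenic capillary cells, 3 were higher in the adult (46.3% of all genes) and 9 lower (21.6%), and the median of all genes shifted by 0.42 on the log2 scale. In endocardial cells 10 of 21 were higher (29.3%) and 5 lower (29.4%). Aldoa (1.88-fold, 1.53 to 2.30) and Pkm (2.05-fold, 1.61 to 2.57) were higher in adult endocardial cells and lower in adult angiogenic capillary cells, by 1.78-fold (1.42 to 2.23) and 1.60-fold (1.23 to 2.07). The E12 endocardial levels of both lay below the 385 and 284 CPM of the E12 barcodes with too few UMIs for a cell. The part of background in these ratios was not tested. Adult endocardial cells also carried 2864 CPM of mesenchymal markers, against 1292 CPM at E12, and their part in these values was not tested. Only 5 of the 8 mesenchymal markers had a UMI in the adult cells, Col1a1, Tcf21 and Sox9 having none, while all 8 did at E12.

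The vessel classes of 1 library share cells. At P2, 55.8% of the angiogenic capillary and 50% of the mature capillary cells met another rule, and the mature to angiogenic capillary ratio of the sums was 0.869, or 0.740 with cells of 1 class only. At P2 no member was at least 1.5-fold higher in mature than in angiogenic capillary cells (0.798% of all genes), and 2 of 31 were lower (1.38%), Egln3 and Mif. In the adult Ddit4 was higher (8.18%) and Slc2a1 lower (5.96%) of 27, the interval of Slc2a1 including 1, and the ratio of the sums was 1.01 (0.973 to 1.06). Between artery and mature capillary cells at P2, 3 of 30 members were higher (8.65%), Bnip3, Epas1 and P4ha2, and Egln1 was lower (5.74%). In the adult none of 28 was higher (4%) and Egln1 was lower (1.31%), with a ratio of the sums of 1.07 (1.05 to 1.10). Among adult mature capillary cells, 51.1% met another rule too.

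The non-endothelial class of the embryo held more of the sum than the endocardial class, 1.24-fold (1.21 to 1.27) at E12 and 1.18-fold (1.15 to 1.22) at E15. Of 30 members at E12, 7 were higher (9.13% of all genes), led by Bnip3 (2.30-fold) and Slc16a3 (1.81-fold) and including Mif (1.66-fold), while Epas1 was lower (7.94%), at 18.8 against 48.9 CPM. Both values of Epas1 lay below the 73.5 CPM of the E12 barcodes with too few UMIs for a cell. At E15, 5 of 28 were higher (7.13%) and Epas1 again lower (7.74%). In the adult, 4 of 14 were higher (18.3%) and Ddit4 lower (23.3%). Erythroid markers moved with this class, at 12295 against 2022 CPM at E12, as did mesenchymal markers, at 2718 against 1292 CPM, and their part in the result was not tested.

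The study was concerned with sprouting and pre-arterial cells, for which Cxcr4 is a marker. It reported hypoxia and glycolysis genes as enriched in its pre-arterial cluster against the other coronary clusters. It also took Apln, a gene of the angiogenic capillary rule, as a marker of subepicardial tip cells. At E12 it found no overlap of those cells with tip cells expressing Esm1, its pre-arterial marker. It reported hypoxia among the top pathways higher in the Esm1-expressing than in the Apln-expressing tip cells. The split given here is therefore not the pre-arterial cluster of the study. Angiogenic capillary cells with a Cxcr4 UMI numbered 3 of 130 at E15, 34 of 1454 at P2 and 9 of 203 in the adult. All lie under the 50 cells asked of a group in the other comparisons. Their intervals cover counting error and not the spread between so few cells. At E15 the sum was 11328 CPM in the 3 cells against 7761 CPM in the other 127 cells, a ratio of 1.46 (1.05 to 1.97) from 43 UMIs. Of 10 members, 4 were higher (19.1% of all genes) and Pgam1, with no UMI, was lower (34.2%). Only 2 of the 4 had an interval above 1, and that of Pgam1 included 1. At P2 the sum was 6680 CPM against 5545 CPM, a ratio of 1.20 (1.15 to 1.27). Of 30 members 5 were higher (10.5%), none of them with an interval above 1, and 4 were lower (23.1%), of which Ankrd37 (0.534, 0.283 to 0.917) had an interval below 1. In the adult the ratio was 0.908 (0.747 to 1.09), and 0 of 13 members were higher (13.3%) and 3 lower (25.4%), none of them with an interval below 1. Cells with more UMIs are more likely to show 1 of Cxcr4, and the part of depth in these ratios was not tested.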

How the data were processed

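The 33 genes, the classes and the pathway and marker lists were chosen with earlier results of these data known. Libraries were of the 10x Genomics v2 3′ kind, and the authors ran Cell Ranger 2.2 on mm10 (per the labels and the submitters' processing notes) and deposited whole UMI counts per gene and barcode, not normalized. The E12 table holds 737280 barcodes, and the 5732 with at least 452 UMIs were taken as cells. The other tables hold called cells. UMIs were summed per class and library. CPM have exact Poisson intervals and ratios exact conditional binomial intervals, both 95% and for counting error only, and were checked on simulated data. A count of 0 is given the limit of 3 counts. With 1 library a stage no p-value was computed. Cells of a class are not replicates, and no doublet caller was used in the main values. Scrublet (scanpy 1.11.5, score over 0.15) and the limits of the study on UMIs, genes and mitochondrial share were alternatives. The rule for naming gave most room to up to 5 members a role with the most UMIs and those past 1.5-fold in at least 3 of 11 comparisons, the others by ranges, and to at most 4 pathway genes a comparison, those with the largest fold. Promoter sequences are from RefSeq (GRCm38.p6) and places from GENCODE M21. Ero1l was matched as Ero1a.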

Additional observations from a re-analysis of the deposited data

Results flagged for a closer look

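The ratio of Bnip3 between P2 and E15 lay on opposite sides of 1 in the 2 classes compared, and the difference was not tested. It was 1.70-fold higher at P2 in endocardial cells, while in angiogenic capillary cells the ratio was 0.646, with an interval of 0.393 to 1.14 that includes 1, and turned to 1.16 with thinned cells. Pgk1 did so between P2 and the adult, also untested, with a ratio of 1.97 in endocardial cells (0.771 to 4.24, from 7 adult UMIs) and 0.602 in angiogenic capillary cells (0.317 to 1.04).

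The 158274 barcodes of the E12 library under the limit for a cell held 1033891 UMIs, and the 33 genes made up 3750 CPM (3633 to 3870) of them, a value above the limit that a count of 0 allows. Cells of the E12 endocardial class held 3679.6 CPM. Epas1 (73.5 CPM), Aldoa (385 CPM), Pkm (284 CPM) and Ldha (389 CPM) stood higher in those barcodes than in the E12 endocardial class. Mif (744 CPM, 692 to 798) stood close to its level in that class, and Gapdh (563 CPM) stood lower. In the E12 angiogenic capillary class Epas1 lay below this background and the other genes named lay above it. The E12 barcodes with at most 100 UMIs held 881 CPM (814 to 952) of Mif and 4096 CPM (3950 to 4245) of the 33 genes. The part of background in the E12 levels of single genes was not tested.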

How the results depend on the processing

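The ratio of the sums for angiogenic capillary P2 to E15 passed 1.5-fold under the denominator and median settings given here, and no other ratio of sums moved across that fold. For the comparisons named first in the design, values outside the counting interval of the reported one were as follows. For endocardial P2 to E15 they were 0.976 with the limits of the study, 0.982 with Scrublet as well, 0.994 with classes set on thinned cells, 0.809 without mitochondrial, ribosomal protein and hemoglobin genes in the denominator, 1.03 without Gapdh and 0.788 scaled to the median gene, so that its direction rests on the setting. For endocardial E15 to E12 they were 0.990, 0.988, 0.910 and 0.990 (cells of 1 class only, 1 more marker UMI, denominator, without Gapdh). For angiogenic capillary P2 to E15 they were 0.753 (1 class), 0.598 (denominator), 0.774 (without Gapdh) and 0.615 (median), and for Adult to P2 0.686 (1 class), 0.702 (1 more UMI) and 0.812 (mean over cells). Mature capillary Adult to P2 gave 0.970 (thinned), 0.869 (denominator), 0.917 (mean over cells) and 0.957 (without Gapdh). Angiogenic capillary to endocardial at E15 gave 2.40 with Scrublet and with 1 class, 2.53 (1 more UMI) and 2.36 (median), and non-endothelial to endocardial at E12 1.28 (Scrublet), 1.39 (1 class), 1.36 (1 more UMI) and 1.33 (thinned). In the adult, mature to angiogenic capillary gave 0.967 (1 class) and 1.08 (thinned), and artery to mature capillary 1.17 (1 class), 1.11 (thinned) and 1.05 (median). The thinned value of 1.08 rests on 19 angiogenic capillary cells, under the least of 20 set for an alternative. For other reported sums the range over the alternatives was 2.29 to 2.77, 1.61 to 1.90 and 1.04 to 1.16 for angiogenic capillary to endocardial at E12, P2 and in the adult, 0.740 to 0.883 for mature to angiogenic capillary and 1.02 to 1.19 for artery to mature capillary at P2, 0.361 to 0.546 for angiogenic capillary Adult to E12, and 0.870 to 1.24, across 1, for endocardial Adult to E12.

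Single genes past 1.5-fold crossed 1 in 15 cases, 10 of them with thinned cells, where groups are small. With thinning the ratios were 0.804 (Ero1l) in endocardial Adult to P2, 0.984 (Hk1) and 0.865 (Ero1l) in endocardial Adult to E12, 0.967 (Pfkp), 1.16 (Bnip3) and 1.55 (Egln1) in angiogenic capillary P2 to E15, 1.87 (Slc2a1), 0.921 (Bnip3) and 1.60 (Egln3) in mature capillary Adult to P2, and 0 (Slc2a1) in angiogenic capillary to endocardial at E15. With cells of 1 class, Egln1 was 0.442 in angiogenic capillary Adult to P2 and Tpi1 1.14 in adult angiogenic capillary to endocardial. With Scrublet, Pfkl was 0.852 in angiogenic capillary to endocardial at E12, and Slc16a3 0.643 in the P2 cells split by Cxcr4 (0.662 with the limits alone). The cause was not tested. Of 210 calls, the fold was kept by 187 (limits), 183 (with Scrublet), 187 (1 class), 185 (1 more UMI), 197 (denominator), 186 (mean over cells), 199 (median) and 203 (without cells rich in handling-stress genes, added after the data had been seen), and with thinning by 107 of 145. Thinning left too few cells for the E12 and adult angiogenic capillary class in comparisons of single genes and for the Cxcr4 split. No paired analysis was possible because each stage has 1 library.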
